A study of Homo sapiens with 8 samples.

Results

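The ephrin receptors are the largest family of receptor tyrosine kinases, and the library carried 98 sgRNAs against 14 of their genes, out of 10429 sgRNAs and 1420 targeted genes in all. Members were taken by gene symbol alone, every gene named EPHA or EPHB followed by a digit, which gave 9 EPHA genes with 63 sgRNAs and 5 EPHB genes with 35. Each gene had 7 sgRNAs, and sgRNAs against one gene are not replicates of a condition. The cells were a platinum-resistant derivative of COV362, an established high-grade serous ovarian cancer line that expressed Cas9 and carried a druggable-genome sgRNA library. After culture they were stained for PRMT5, an arginine methyltransferase, and sorted into the 20% with the least PRMT5 (PRMT5lo) and the 20% with the most (PRMT5hi), with 4 libraries of each. Both populations came from the same transduced cells, and neither unsorted cells nor cells taken before the culture are analysed here. All 8 libraries carry Cas9 and are labelled wild type, so the gate is the only labelled difference between the groups.

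Ephrin receptors sit in the plasma membrane and are activated by ephrins on the surface of neighboring cells. EPHA receptors mostly bind ephrin-A ligands, which are held in the membrane by a lipid anchor, and EPHB receptors mostly bind ephrin-B ligands, which span it. Signals run both ways across the cell contact and control adhesion, repulsion and cell shape, in part through SRC and ABL kinases. The family is best known for axon guidance, for tissue boundaries and for vessel formation, and several members are altered in epithelial cancers. The screen asked whether disruption of any of these genes shifted cells between the PRMT5 gates.

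The deposited values are CPM, the reads of an sgRNA for every 1000000 mapped reads, averaged by the authors over the libraries of a population, so no value of a single library can be shown. The value columns do not name their population. The assignment to PRMT5lo and PRMT5hi follows the legend of the study, whereas its methods text gives the fold change the opposite sign, so every direction here rests on that legend. The log2 ratio is log2 of CPM + 1 in PRMT5lo over CPM + 1 in PRMT5hi cells. Ratios above 0 thus mean a higher abundance in PRMT5lo cells, ratios below 0 a higher abundance in PRMT5hi cells. The SE given with a CPM value is that of the sgRNA's share of the reads, from the authors' variance over 4 libraries, on the CPM scale. The 98 sgRNAs summed to 8658 CPM in PRMT5lo and 8976 CPM in PRMT5hi cells, and single sgRNAs ran from 16.1 to 281.8 CPM in PRMT5lo and from 19.3 to 248.1 CPM in PRMT5hi cells. The median member had about 1550 reads over the PRMT5lo libraries together and 1230 over the PRMT5hi libraries, with a minimum of 308 and 312. Reads were amplified without molecular tags and do not count independent cells, so the depths speak for counting error alone.

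No ephrin receptor gene passed the thresholds of the study's legend, taken here as a one-sided p under 0.01 with a mean log2 ratio above 0.25 for PRMT5lo or below -0.25 for PRMT5hi. The methods text sets a stricter p limit for PRMT5lo, under which the count for PRMT5lo is also 0. Of the 14 genes, 0 were called toward PRMT5lo, where 0.704% of all 1420 genes were called, and 0 toward PRMT5hi, where 0.845% were called. Both counts lie near this background. The gene means ran from -0.19 to 0.10, with a median of -0.05 against -0.003 over all genes. Of the 14 means, 10 were below 0, or 71.4%, against 51.5% of all genes. At a one-sided p under 0.05 with no limit on the mean, 0 members passed toward PRMT5lo, where 8.59% of all genes did, and 1 passed toward PRMT5hi, where 9.30% did. The smallest adjusted p over the members by Fisher's method with Benjamini-Hochberg adjustment over all genes was 0.736 toward PRMT5lo and 0.423 toward PRMT5hi. The error of a gene's mean that follows from the authors' variances between libraries ranged from 0.07 to 0.13 on the log2 scale. With this error, the 95% interval of the mean reached beyond 0.25 for 2 members and beyond -0.25 for 7, so a shift of that size could not be told from the measured one in these genes.

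*EPHA2*, a receptor of epithelial cells whose main ligand is ephrin-A1, had the lowest mean of the family, and all 7 of its sgRNAs were less abundant in PRMT5lo than in PRMT5hi cells. EPHA2_4 stood at 73.5 CPM (SE 9.27) in PRMT5lo and 101.2 CPM (SE 16.0) in PRMT5hi cells. EPHA2_2 had 163 CPM (SE 15.7) in PRMT5lo and 199 CPM (SE 24.9) in PRMT5hi cells, and EPHA2_7 had 133 CPM (SE 14.5) in PRMT5lo and 162 CPM (SE 6.67) in PRMT5hi cells. The remaining 4 were closer together, with 120.4 and 133 CPM for EPHA2_1, 66.3 and 70.0 CPM for EPHA2_3, 117 and 122 CPM for EPHA2_5, and 80.5 and 83.9 CPM for EPHA2_6, PRMT5lo before PRMT5hi in each. The direction was thus shared by the whole set while the sizes were small, from -0.46 to -0.06. The mean log2 ratio was -0.19, with an SD over sgRNAs of 0.15, which is 1.14-fold toward PRMT5hi cells. It ranked 74 from the lowest of 1420 genes. No single sgRNA of *EPHA2* passed a one-sided p of 0.05, and their combination by Fisher's method had a one-sided p of 0.0638 toward PRMT5hi (adjusted p = 0.578, Benjamini-Hochberg). Its 95% interval from the variances between libraries, -0.36 to -0.03, was the only one of the 14 that left out 0, and 4.79% of all genes had an interval below 0 and 3.87% one above 0. The variances of EPHA2_1 in PRMT5lo and of EPHA2_5 in PRMT5hi cells were the smallest CB2 allows, set by read number alone. For these values the interval holds no further spread between libraries.

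*EPHB6*, which lacks kinase activity, had the lowest mean of the EPHB class and was the only other member whose 7 sgRNAs all stood lower in PRMT5lo cells. By log2 ratio the lowest were EPHB6_5, with 87.7 CPM (SE 9.003) in PRMT5lo and 109.5 CPM (SE 2.59) in PRMT5hi cells, and EPHB6_2, with 52.1 CPM (SE 13.7) in PRMT5lo and 64.0 CPM (SE 8.99) in PRMT5hi cells. At the other end, EPHB6_1 had 66.4 CPM in PRMT5lo and 66.6 CPM in PRMT5hi cells, a gap smaller than their SEs of 1.86 and 6.42. The mean was -0.17 (SD 0.13), 1.13-fold toward PRMT5hi, with a one-sided p of 0.0659 by Fisher's method (adjusted p = 0.588, Benjamini-Hochberg). The variances of EPHB6_1 and EPHB6_6 in PRMT5lo and of EPHB6_5 in PRMT5hi cells were the smallest CB2 allows, set by read number alone. By Fisher's method the p was 0.16 without EPHB6_5 and 0.15 without EPHB6_6. It was at most 0.0691 without any other sgRNA. The SDs of *EPHB6* and *EPHA2* were among the smallest of the library, at ranks 1367 and 1299 of 1420 from the largest. A small SD was not particular to them, since *EPHA6*, with sgRNAs on both sides of 0, had rank 1337. Genes with all 7 sgRNAs lower in PRMT5lo cells made up 1.20% of the 1413 genes with 7 sgRNAs, and genes with all 7 higher made up 0.920%. Among the ephrin receptors these counts were 2 and 0. The agreement among sgRNAs was seen before it was counted, so it is given as a description.

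The other gene without kinase activity, *EPHA10*, did not share this pattern. Its 7 sgRNAs were split, 4 above 0 and 3 below, with a mean of 0.01 (SD 0.32). EPHA10_6 stood farthest from 0, at 119.7 CPM (SE 7.26) in PRMT5lo and 84.0 CPM (SE 9.82) in PRMT5hi cells, a log2 ratio of 0.51 and a one-sided p of 0.0144. EPHA10_4 went the other way, with 52.1 CPM in PRMT5lo and 66.0 CPM in PRMT5hi cells. The kinase-deficient pair therefore held one of the most uniform genes of the family and one of the more spread ones.

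*EPHA1*, an epithelial receptor and the founding member of the family, had the second-lowest mean, -0.18, but this value rested on one sgRNA. EPHA1_1 stood at 29.1 CPM (SE 5.50) in PRMT5lo and 63.0 CPM (SE 7.33) in PRMT5hi cells, a 2.13-fold higher abundance in PRMT5hi cells. Its log2 ratio of -1.09 was the largest in size among the 98 members and ranked 23 from the lowest among the 9929 targeting sgRNAs. The difference, PRMT5lo minus PRMT5hi, was -33.9 on the CPM scale (95% interval -56.8 to -11.1), with a one-sided p of 0.00576 (adjusted p = 0.493, CB2's statistic with Benjamini-Hochberg adjustment over targeting sgRNAs). EPHA1_7 lay at the opposite end, at 148 CPM (SE 16.3) in PRMT5lo and 115 CPM (SE 17.4) in PRMT5hi cells. The SD over the *EPHA1* sgRNAs was 0.48, rank 50 of 1420 from the largest, and without EPHA1_1 the mean was -0.03.

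*EPHA5*, a receptor of the developing and adult nervous system, had sgRNAs that passed in opposite directions. EPHA5_1 stood at 105.8 CPM (SE 4.12) in PRMT5lo and 70.1 CPM (SE 10.2) in PRMT5hi cells, a log2 ratio of 0.59 and the highest of all members. EPHA5_6 had 97.9 CPM (SE 2.23) in PRMT5lo and 71.9 CPM (SE 7.15) in PRMT5hi cells. Against these, EPHA5_7 had 46.8 CPM (SE 7.33) in PRMT5lo and 69.2 CPM (SE 6.09) in PRMT5hi cells, and EPHA5_3 had 46.0 CPM (SE 1.54) in PRMT5lo and 71.8 CPM (SE 12.3) in PRMT5hi cells. The one-sided p was 0.0160 for EPHA5_1 and 0.0226 for EPHA5_6 toward PRMT5lo, and 0.0295 for EPHA5_7 and 0.0594 for EPHA5_3 toward PRMT5hi. The variance of EPHA5_3 and of EPHA5_6 in PRMT5lo cells lay at the floor of CB2, a value set by read number alone. Combined without regard to direction, a combination chosen after the values were seen, the 7 sgRNAs gave the smallest two-sided p of the family, 0.0148 by Fisher's method (adjusted p = 0.292, Benjamini-Hochberg). The mean was -0.06 with an SD of 0.47, rank 52 of 1420, so the spread within the gene was far larger than its mean.

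*EPHB2*, which helps to sort cells along the intestinal crypt and, unusually for its class, also binds an ephrin-A, was the 1 member that passed a one-sided p of 0.05 toward PRMT5hi by Fisher's method. Its mean was -0.02 (SD 0.26), close to 0, with 3 sgRNAs above 0 and 4 below, and the one-sided p by Fisher's method was 0.0212 (adjusted p = 0.423, Benjamini-Hochberg). EPHB2_6 alone carried this value, at 67.4 CPM (SE 1.87) in PRMT5lo and 86.3 CPM (SE 2.28) in PRMT5hi cells. Its one-sided p of 0.000586 was the smallest of the 98 sgRNAs (adjusted p = 0.166, CB2's statistic, Benjamini-Hochberg), although its log2 ratio of -0.35 was exceeded in size by several others. Both of its variances lay at the floor of CB2, so its errors hold counting of reads and no further spread between libraries. With EPHB2_6 left out, the gene's p toward PRMT5hi was 0.463 and its mean 0.03. The member that passes depends on the method. The alternative, limma, takes the sgRNAs of a gene as its units, although they are not replicates of a condition. It gave one-sided p-values of 0.337 for *EPHB2*, 0.0145 for *EPHA2* and 0.0235 for *EPHB6* (adjusted p = 0.784, 0.397 and 0.495, Benjamini-Hochberg). For *EPHA2* and *EPHB6* these p-values restate the agreement among sgRNAs described above and add no separate evidence.

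*EPHA4*, the receptor that binds both classes of ephrin most broadly, also had a single sgRNA apart from the rest. EPHA4_6 stood at 126.0 CPM (SE 9.97) in PRMT5lo and 169 CPM (SE 5.70) in PRMT5hi cells, a log2 ratio of -0.42 with a one-sided p of 0.00735. Of its other 6 sgRNAs, 5 had ratios above 0, the highest being EPHA4_1 with 92.9 CPM in PRMT5lo and 71.6 CPM in PRMT5hi cells. The gene mean was 0.01 (SD 0.25), the closest to 0 in the EPHA class after *EPHA10*.

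*EPHA3*, *EPHA6*, *EPHA7* and *EPHA8* are best known from the developing nervous system, and *EPHA3* also from mesenchymal cells. *EPHA3* had 2 sgRNAs past a one-sided p of 0.05 toward PRMT5hi. EPHA3_5 had 95.9 CPM (SE 5.05) in PRMT5lo and 113 CPM (SE 2.91) in PRMT5hi cells, with a one-sided p of 0.0174. EPHA3_6 had 89.0 CPM (SE 6.28) in PRMT5lo and 117 CPM (SE 11.0) in PRMT5hi cells, with a one-sided p of 0.0398. EPHA3_2, at 39.0 CPM in PRMT5lo and 28.9 CPM in PRMT5hi cells, lay in the other direction, and the gene mean was -0.08 (SD 0.32). For *EPHA7* the mean was -0.06 (SD 0.27), and EPHA7_7, at 134.5 CPM (SE 7.55) in PRMT5lo and 166 CPM (SE 12.3) in PRMT5hi cells, passed toward PRMT5hi with a one-sided p of 0.0412. *EPHA6* had a mean of -0.03, an SD of 0.14 and no sgRNA past 0.05. Its EPHA6_3, at 28.7 CPM in PRMT5lo and 34.6 CPM in PRMT5hi cells, was the least abundant EPHA sgRNA in PRMT5lo. *EPHA8* had the highest mean of the family, 0.10 (SD 0.24), led by EPHA8_1 with 84.6 CPM (SE 5.03) in PRMT5lo and 64.6 CPM (SE 8.82) in PRMT5hi cells and EPHA8_3 with 83.4 CPM (SE 8.91) in PRMT5lo and 64.8 CPM (SE 1.99) in PRMT5hi cells. No sgRNA of *EPHA8* passed 0.05, and its one-sided p toward PRMT5lo was 0.0959 by Fisher's method (adjusted p = 0.736, Benjamini-Hochberg). EPHA8_5 was the most abundant member, at 281.8 CPM in PRMT5lo and 248.1 CPM in PRMT5hi cells.

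In the EPHB class, *EPHB4*, the ephrin-B2 receptor of veins, had a mean of -0.14 (SD 0.25), and its value too leaned on one sgRNA. EPHB4_3 stood at 48.0 CPM (SE 4.77) in PRMT5lo and 74.2 CPM (SE 7.37) in PRMT5hi cells, a log2 ratio of -0.62, the lowest of its class, and a one-sided p of 0.0152. Without it the mean of *EPHB4* was -0.06. EPHB4_5 was the most abundant EPHB sgRNA, at 201.7 CPM (SE 22.0) in PRMT5lo and 197.5 CPM (SE 3.48) in PRMT5hi cells. *EPHB1*, a receptor of axon guidance, had a mean of 0.005 (SD 0.19), and *EPHB3*, which acts beside *EPHB2* in the crypt, -0.03 (SD 0.27), with no sgRNA of either past 0.05. *EPHB3* sgRNAs were the least abundant of the family, averaging 59.5 CPM in PRMT5lo and 60.3 CPM in PRMT5hi cells, and EPHB3_2 was the lowest member in PRMT5lo, at 16.1 CPM against 22.3 CPM in PRMT5hi cells.

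The 2 classes did not separate. The EPHA gene means had a median of -0.06 and the EPHB gene means of -0.03, a difference of -0.03 for EPHA minus EPHB. With the mean in place of the median the order was the other way, at -0.06 for EPHA and -0.07 for EPHB, with a difference of 0.02 (error 0.06 from the variances between libraries). Of the EPHA sgRNAs 37 of 63 (58.7%) were below 0 and of the EPHB sgRNAs 21 of 35 (60.0%), against 50.2% of all targeting sgRNAs. The EPHA ratios had an SD of 0.31, from -1.09 to 0.59, and the EPHB ratios an SD of 0.22, from -0.62 to 0.28 at EPHB2_5, which had 68.5 CPM (SE 1.88) in PRMT5lo and 56.2 CPM (SE 10.2) in PRMT5hi cells. The SD was 0.29 over all targeting and 0.25 over the 500 control sgRNAs. These SDs were not tested against each other. Control sgRNAs were more abundant, with medians of 123.2 CPM in PRMT5lo and 123.5 CPM in PRMT5hi cells. Those of all targeting sgRNAs were 84.9 and 85.0 CPM, so the controls are not a like reference for spread. EPHA sgRNAs averaged 92.4 CPM in PRMT5lo and 95.4 CPM in PRMT5hi cells, and EPHB sgRNAs 81.1 CPM in PRMT5lo and 84.7 CPM in PRMT5hi cells.

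Counted as single sgRNAs, 3 of the 98 passed a one-sided p of 0.05 toward PRMT5lo (3.06%) and 8 toward PRMT5hi (8.16%). Over all targeting sgRNAs these shares were 5.66% and 6.00%, and over the sgRNAs labelled as controls 9.0% and 6.6%. All 3 toward PRMT5lo were EPHA sgRNAs, 1 against *EPHA10* and 2 against *EPHA5*. The 8 toward PRMT5hi came from 7 genes, with only *EPHA3* giving more than 1. Both shares lie near those of the whole library. Ratios beyond 0.5 in size were similarly rare, 4 below -0.5 and 2 above 0.5, or 4.08% and 2.04% of members against 4.51% and 3.95% of all targeting sgRNAs. No member sgRNA reached an adjusted p of 0.05 by CB2's statistic with Benjamini-Hochberg adjustment, and 4 of the 9929 targeting sgRNAs did.

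Several of the genes are neighbors in the genome (GRCh38.p14). *EPHA8* (chromosome 1, 22563489 to 22603595) and *EPHB2* (chromosome 1, 22710838 to 22921500) start 147349 bp apart and had means of 0.10 and -0.02. *EPHB6* (chromosome 7, 142855076 to 142871093) and *EPHA1* (chromosome 7, 143391129 to 143408856) start 536053 bp apart. This pair had means of -0.17 and -0.18, the latter -0.03 without EPHA1_1. The 7 other library genes that start within 5 Mb of this pair had a median mean of 0.04 and a range from -0.03 to 0.27. For the 13 around *EPHA8* and *EPHB2* the median was -0.005, with a range from -0.16 to 0.18. A link between position and these values was not tested. *EPHA2* lies apart from these on chromosome 1, from 16124337 to 16156069. *EPHA3*, *EPHA6*, *EPHB1* and *EPHB3* are on chromosome 3, *EPHB4* on chromosome 7, *EPHA10* on chromosome 1, *EPHA4* on chromosome 2, *EPHA5* on chromosome 4 and *EPHA7* on chromosome 6. The position of each cut within its gene was not analysed here.

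Library genes that act with the receptors were read beside them. Of 10 non-receptor tyrosine kinases linked to ephrin receptor signals (*SRC*, *FYN*, *YES1*, *LYN*, *LCK*, *ABL1*, *ABL2*, *PTK2*, *PTK2B* and *CSK*), 0 were called in either direction, and their median mean was -0.009. Over all genes, 0.704% were called toward PRMT5lo and 0.845% toward PRMT5hi. *CSK*, which restrains the SRC family, was lowest, with 48.8 CPM in PRMT5lo and 63.3 CPM in PRMT5hi cells and a mean of -0.34 (SD 0.44). *ABL2*, an actin-binding kinase of the ABL family, was highest, with all 7 sgRNAs above 0, a mean of 0.15 (SD 0.11), and 131 CPM in PRMT5lo and 119 CPM in PRMT5hi cells. By Fisher's method the one-sided p was 0.0166 toward PRMT5hi for *CSK* and 0.113 toward PRMT5lo for *ABL2*, neither under 0.01.

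Among other receptor tyrosine kinases, 10 genes of the vascular and PDGF/KIT classes had a median mean of -0.006, with 0 called and a range from -0.19 for *PDGFRA* to 0.09 for *TEK*. The 16 receptors of the ERBB, FGFR, MET, TAM and NTRK families had a median of 0.04, with 0 called toward PRMT5lo and 1 toward PRMT5hi, and *FGFR2* was highest with 0.15. Of all 1420 genes, 0.704% were called toward PRMT5lo and 0.845% toward PRMT5hi. The called gene, *NTRK2*, a neurotrophin receptor, had 98.4 CPM in PRMT5lo and 118 CPM in PRMT5hi cells and a mean of -0.33 (SD 0.30), beyond any ephrin receptor gene. Its one-sided p toward PRMT5hi was 0.00276 by Fisher's method, with an adjusted p of 0.209 (Benjamini-Hochberg). The difference between these medians and the -0.05 of the ephrin receptors was not tested.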

How the data were processed

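The screen was measured by sequencing sgRNAs from 4 PRMT5lo and 4 PRMT5hi libraries. The authors used CB2 to map reads to the library's sgRNA sequences and to compare the populations, and deposited for each sgRNA a CPM value averaged over the libraries of a population, a fraction (its share of the reads) and, as another value, the variance of that share over libraries. FastQC and hg38 appear in the submitters' processing notes, and for tool versions the entry is "not given in the sources used here". Deposited fold changes, p-values and gene table hold the authors' own comparisons and were not used. The columns carry only the suffixes a and b. PRMT5hi was read as a and PRMT5lo as b from the figure legend and its data sheet. The methods text gives the opposite sign to the fold change.

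With Python 3.11.15 and scipy 1.17.1, CB2's statistic (difference of shares over its standard error, Welch degrees of freedom) was recomputed for all 10429 sgRNAs, and one-sided p-values were combined per gene by Fisher's method, with Benjamini-Hochberg adjustment over 1420 genes. Ratios used a pseudocount of 1 CPM, which understates changes of sgRNAs of low abundance. The 95% interval of a gene's mean uses the variances between libraries, treats sgRNAs as independent and was added after the data were seen. The scripts were tested on simulated data. limma 3.58.1 on sgRNA ratios, centred on the controls, was an alternative. The depth, recovered from the smallest variance the method allows, was 19117396 reads for PRMT5lo and 16166859 for PRMT5hi. At that variance were 11 member sgRNAs in PRMT5lo and 12 in PRMT5hi. Since 1 transduction was split into the cultures, p-values cover no more than the variation among those cultures, and no exact test over libraries could be run on values pooled by population. Coordinates are those of RefSeq (GRCh38.p14), in which all 14 symbols matched. No sgRNA sequence was used.

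All 14 genes are named, with every sgRNA past a one-sided p of 0.05, the extremes of each class, and members of comparison lists with the highest or lowest means or past the thresholds. Members, lists and rules were chosen with earlier results of these data known. The results of 2 further comparison lists are not reported here.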

Additional observations from a re-analysis of the deposited data

How the results depend on the processing

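No ephrin receptor gene was called in either direction with a pseudocount of 5 or 10 CPM, a minimum of 20 CPM (with at least 3 sgRNAs left, a choice made after the data were seen), control centring, the median over sgRNAs, Stouffer's method, limma, an adjusted p under 0.05, or any single sgRNA left out. A pseudocount, control centring or the median changes the ratio and leaves Fisher's p as it was. The smallest p of a member by Fisher's method was 0.0212 toward PRMT5hi and 0.0959 toward PRMT5lo. Neither is under 0.01, so those settings could not add a call. Dropping the limit on the mean and raising the p limit to 0.05 gave 1 gene toward PRMT5hi, *EPHB2*, where 9.30% of all genes passed. At that p limit limma passed *EPHA2* and *EPHB6* and not *EPHB2*. The share of all genes that limma passed is not given here, so its count cannot be set against the library. The difference EPHA minus EPHB was 0.059 with the median over sgRNAs in place of the mean, and ran from -0.030 to 0.042 with each sgRNA number left out, so its sign was not fixed. A normal tail gave 7 member sgRNAs toward PRMT5lo and 14 toward PRMT5hi, where 8.95% and 9.52% of all targeting sgRNAs passed. Variances raised to the abundance trend gave 2 toward PRMT5lo and 3 toward PRMT5hi, where 2.85% and 2.80% of all targeting sgRNAs passed. Of 98 alternative gene means, 88 kept their sign and none moved by more than the SD over sgRNAs. The 10 that changed sign came from 7 genes: *EPHA4*, *EPHA5*, *EPHA6*, *EPHA10*, *EPHB1*, *EPHB2* and *EPHB3*. With 1 of 7 sgRNAs left out, or with the median, a mean cannot move by more than that SD. Control centring moved every mean by 0.0108, below the smallest SD of 0.127. The minimum of 20 CPM altered only *EPHB3* and *EPHB4*. These counts therefore say little about stability. No paired analysis was possible because the deposited columns are pooled over the 4 libraries of a population, and for the same reason no library could be left out.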
